A study of Mus musculus with 44 samples.

Results

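The genes described here are 10 enzymes of glycolysis, the pathway that splits glucose into pyruvate and lactate: Gapdh, Pkm, Ldha, Aldoa, Eno1, Pgk1, Tpi1, Pgam1, Gpi1 and Hk2. They were selected by symbol, around the large difference of Gapdh between groups of the same data, and are 10 of the 14699 genes of the deposited table. The question was whether the difference of Gapdh is shared by the other 9 enzymes. Because Gapdh was chosen by its difference between groups, the values between groups are given for the 10 enzymes as a description, with no p-value.

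RNA-seq was made from CD45+CD11c+MHCIIhigh cells, the migratory dendritic cells (DCs) of the draining inguinal lymph node, sorted 24 h after an injection under the skin of the right flank. The injection was given at ZT3, ZT9, ZT15 or ZT21, where ZT counts hours from lights on in a day with 12 h of light. The control group (WT) had WT genotype and received B16-F10-OVA cells, a mouse melanoma line that makes ovalbumin (5 mice per timepoint, 20 libraries). The group labelled KO received the same cells (3 mice per timepoint, 12 libraries), and in the study's methods these mice are Clec9a-cre:Bmal1flox, in which Cre under control of Clec9a removes the floxed Arntl (Bmal1, a core clock gene) in conventional DCs. The sham group (PBS) had WT genotype and received PBS without tumour cells (3 mice per timepoint, 12 libraries). All mice were females 8 to 12 weeks old. WT and KO therefore share the tumour cells, and WT and PBS share the genotype.

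Values are CPM, the reads on a gene per 1000000 reads on genes in that library. There were 20088012 to 28962671 reads on genes in the WT libraries, 29406729 to 55799163 in KO and 28003328 to 49590055 in PBS, so depth differed with the group. Arntl, the gene targeted in KO, was not lower there: its mean was 14.8 ± 3.65 CPM (SD, n = 20) in WT, 19.9 ± 6.91 CPM (n = 12) in the libraries labelled KO and 21.7 ± 6.11 CPM (n = 12) in PBS. The value is over the whole gene, exons outside the floxed part included, so it does not check the deletion, and KO is used only as the label of these libraries. The 12 DC markers summed to 26014 to 37801 CPM in every library, whereas the 9 T cell markers summed to 259 to 1102 CPM and the 6 NK cell markers to 3.28 to 178 CPM.

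Library KO ZT15 replicate 2 stood apart. It was the highest of all 44 libraries in 9 of the 10 enzymes and the highest KO library in 10 of 10. Markers of granulocytes and macrophages summed to 194 CPM in it, with at most 83.9 CPM in the other KO libraries, melanoma markers to 22.1 CPM, with at most 4.60 CPM in the others, and B cell markers to 119 CPM, with at most 84.5 CPM. Its DC markers summed to 37659 CPM, within the range of the other libraries. Named differences of KO from WT that moved by over 1.5 times without this library, or changed call, are given with and without it.

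Glycolysis runs in the cytosol of every cell and yields ATP without oxygen. DCs that are activated through pattern receptors raise their uptake and breakdown of glucose, which supplies carbon for the fatty acids of an enlarged endoplasmic reticulum and for lactate release. Gapdh and Actb are also used as reference genes of quantitative PCR because their level is often taken as constant, and in this study Gapdh, Rplp0 and Rpl32 served as such references.

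In the order of the pathway, the members are the following. Hk2 (hexokinase 2, chr6:82725025-82774454, minus strand) traps glucose in the cell as glucose 6-phosphate, and Gpi1 (glucose 6-phosphate isomerase, chr7:34201330-34230336, minus strand) turns it into fructose 6-phosphate. Aldoa (aldolase A, chr7, minus strand) splits the hexose into a pair of triose phosphates, which Tpi1 (triose phosphate isomerase, chr6:124810586-124814296, minus strand) interconverts. Gapdh (glyceraldehyde 3-phosphate dehydrogenase, chr6:125161715-125166467, minus strand) oxidizes the triose phosphate and reduces NAD+, and Pgk1 (phosphoglycerate kinase 1, chrX:106187100-106203699, plus strand) makes the first ATP of the pathway. Pgam1 (phosphoglycerate mutase 1, chr19:41911923-41918660, plus strand), Eno1 (enolase 1, chr4:150236721-150248879, plus strand) and Pkm (pyruvate kinase of muscle type, chr9:59656368-59679375, plus strand) lead to pyruvate. Ldha (lactate dehydrogenase A, chr7:46841475-46855627, plus strand) makes lactate and returns NAD+ to the step of Gapdh. Coordinates are of GRCm38 (mm10). Those of Aldoa are left out, because the interval annotated under its name did not hold the start sites given by RefSeq.

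Windows around the start sites are shown for Gapdh, which differed most between groups, for Ldha, the enzyme with the clearest difference between timepoints, and for Pgk1, the step next to Gapdh. They run from 250 bases before to 50 after the start given by RefSeq for GRCm38.p6, 5′ to 3′ on the strand of the gene. Capitals mark each match, on either strand, to CACGTG (an E-box, the form bound by CLOCK with BMAL1 and by other factors) and to ACGTG and GCGTG (the core of the hypoxia response element). CACGTG holds ACGTG on both strands.
Gapdh, chr6:125165724-125166023, minus strand: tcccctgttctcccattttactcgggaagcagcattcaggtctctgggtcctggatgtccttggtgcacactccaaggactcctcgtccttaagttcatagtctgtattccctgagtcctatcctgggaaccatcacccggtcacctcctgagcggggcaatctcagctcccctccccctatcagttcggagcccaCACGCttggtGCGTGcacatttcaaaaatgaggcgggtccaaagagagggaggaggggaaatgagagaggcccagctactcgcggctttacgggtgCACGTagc
Ldha, chr7:46845554-46845853, plus strand: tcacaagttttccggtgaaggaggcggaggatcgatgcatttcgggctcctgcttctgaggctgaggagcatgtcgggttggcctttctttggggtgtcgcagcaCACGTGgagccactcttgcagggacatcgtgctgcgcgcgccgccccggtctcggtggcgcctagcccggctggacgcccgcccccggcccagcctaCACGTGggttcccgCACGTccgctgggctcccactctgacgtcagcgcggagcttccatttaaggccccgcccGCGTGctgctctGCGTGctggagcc
Pgk1, chrX:106186850-106187149, plus strand: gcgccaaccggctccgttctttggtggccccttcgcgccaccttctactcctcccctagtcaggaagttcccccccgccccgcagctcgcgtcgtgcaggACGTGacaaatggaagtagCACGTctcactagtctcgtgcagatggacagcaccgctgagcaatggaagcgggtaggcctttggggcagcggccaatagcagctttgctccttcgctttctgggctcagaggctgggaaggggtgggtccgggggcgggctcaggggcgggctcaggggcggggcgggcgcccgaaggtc

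Among all windows of the 10 enzymes, CACGTG was found only in this window of Ldha, in 2 copies that begin 145 and 48 bases before the start. The window of Gapdh held 1 ACGTG and 2 GCGTG, that of Pgk1 held 2 ACGTG, and those of Tpi1 and Gpi1 held neither. Of 12283 windows, those of the 9626 genes tested that RefSeq's table holds, 9.64% held CACGTG, 25.0% ACGTG and 49.5% GCGTG, so matches of these letters are common. They are a description of the window and not of binding.

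Gapdh was higher in every library labelled KO and in every PBS library than in any WT library. In WT it was, in CPM, 163, 183, 213, 148 and 189 at ZT3, 159, 170, 171, 169 and 198 at ZT9, 218, 208, 206, 217 and 245 at ZT15, and 165, 171, 155, 175 and 176 at ZT21. In KO it was, in CPM, 591, 536 and 555 at ZT3, 650, 655 and 567 at ZT9, 709, 995 and 594 at ZT15, and 486, 555 and 603 at ZT21. In PBS it was, in CPM, 649, 623 and 754 at ZT3, 613, 667 and 776 at ZT9, 665, 853 and 703 at ZT15, and 702, 706 and 628 at ZT21. The highest WT library therefore stayed below the lowest library of each of the other groups, and the KO and PBS libraries overlapped each other.

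The group means of Gapdh were 185 ± 25.7 CPM in WT, 625 ± 131 CPM in KO and 695 ± 71.1 CPM in PBS (SD, n = 20, 12 and 12). Without KO ZT15 replicate 2, the KO mean was 591 ± 62.3 CPM (n = 11). Averaged over the timepoints, the difference on the log2(CPM + 0.5) scale was 1.74 (SE 0.07) for KO minus WT and 1.91 (SE 0.06) for PBS minus WT. By size, Gapdh ranked 70 in the first comparison and 119 in the second among 11963 genes ordered from the most raised. The difference was of like size at every timepoint, 1.65, 1.84, 1.78 and 1.70 for KO minus WT and 1.92, 1.98, 1.75 and 2.01 for PBS minus WT at ZT3, ZT9, ZT15 and ZT21. The comparisons with WT use the same WT libraries, so they are not independent of each other. KO minus PBS was −0.17 (SE 0.08), and 8 KO libraries lay below the lowest PBS library.

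**Figure D1:**
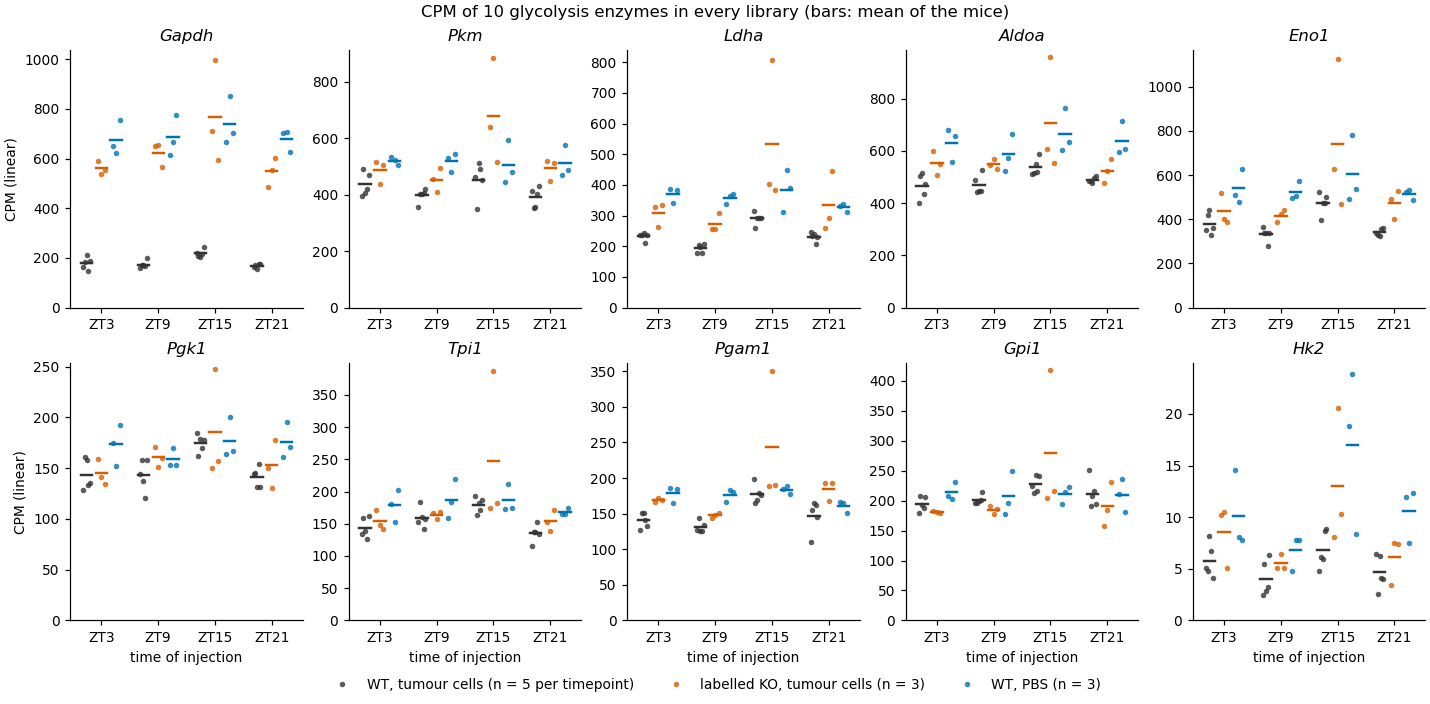
Each panel plots the CPM of 1 enzyme (linear axis from 0) in every library against the time of injection, with points for mice, bars for the mean at each timepoint, and colours for WT with tumour cells (n = 5 per timepoint), the group labelled KO with tumour cells (n = 3) and WT with PBS (n = 3). Gapdh is the only enzyme in which, over all timepoints together, no WT point reaches the other groups (within each timepoint, no WT point of Ldha reaches KO), and the raised KO point at ZT15 is replicate 2 in every panel.

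The other 9 enzymes differed far less. Ldha, which makes lactate, was 178 to 315 CPM in WT (median 237), 256 to 808 CPM in KO (median 319) and 311 to 449 CPM in PBS (median 353). Hk2, the entry enzyme and the least abundant member, was 2.46 to 8.82 CPM in WT (median 5.27), 3.45 to 20.6 CPM in KO (median 7.46) and 4.79 to 23.9 CPM in PBS (median 8.23). Eno1, which forms phosphoenolpyruvate, was 281 to 522 CPM in WT (median 358), 386 to 1124 CPM in KO (median 456) and 479 to 780 CPM in PBS (median 518). In these 3 enzymes the libraries of the groups overlapped when all timepoints were pooled: 6 KO and 10 PBS libraries of Ldha, 4 and 5 of Hk2, and 3 and 6 of Eno1 lay above the highest WT library. Their log2 differences were 0.54 (SE 0.09), 0.53 (SE 0.17) and 0.38 (SE 0.09) for KO minus WT, and 0.61 (SE 0.05), 0.94 (SE 0.17) and 0.52 (SE 0.07) for PBS minus WT.

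Aldoa, Pkm and Pgam1 were also higher on average, by less. Aldoa was 402 to 590 CPM in WT, 477 to 959 CPM in KO and 522 to 763 CPM in PBS, with log2 differences of 0.23 (SE 0.06) and 0.36 (SE 0.05) from WT. Pkm, which makes pyruvate and the last ATP, was 347 to 511, 408 to 885 and 446 to 593 CPM in WT, KO and PBS, with differences of 0.31 (SE 0.07) and 0.30 (SE 0.06). Pgam1 was 110 to 199, 143 to 350 and 151 to 189 CPM, with differences of 0.29 (SE 0.07) and 0.24 (SE 0.05). For Pgam1 only 1 KO library, the one that stands apart, and 0 PBS libraries exceeded the highest WT library.

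The 3 remaining enzymes lay closest to WT. Tpi1 was 116 to 192 CPM in WT, 138 to 386 CPM in KO and 152 to 220 CPM in PBS, and its log2 differences from WT were 0.17 (SE 0.08) in KO and 0.23 (SE 0.06) in PBS. Pgk1, the step that directly follows Gapdh, was 121 to 184, 131 to 248 and 153 to 201 CPM, with differences of 0.09 (SE 0.07) and 0.19 (SE 0.05). Gpi1 was 179 to 252, 157 to 417 and 177 to 249 CPM, with differences of −0.04 (SE 0.08) and 0.01 (SE 0.05). Without KO ZT15 replicate 2 the KO differences were 0.08 (SE 0.06) for Tpi1, 0.03 (SE 0.06) for Pgk1 and −0.12 (SE 0.06) for Gpi1, and the highest KO libraries had 182, 178 and 232 CPM. The sign of Pgk1 in KO and that of Gpi1 in PBS turned under median-of-ratios scaling, so no direction is given for them.

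Over the 9 enzymes other than Gapdh the median log2 difference was 0.29 for KO minus WT and 0.30 for PBS minus WT, beside medians of 0.10 and 0.04 over all 11963 genes tested. Without KO ZT15 replicate 2 the first was 0.22. Gapdh was the only enzyme of the 10 whose libraries lay wholly above those of WT, which it did in both comparisons, where 0.435% of all genes tested in KO and 1.73% in PBS did. Within timepoints more enzymes were separate from WT. Ldha, like Gapdh, lay wholly above WT at 4 of 4 timepoints in KO, and at 3 of 4 in PBS, where Gapdh did at 4. At 3 or more timepoints 2 of the 10 enzymes did so in KO (4.09% of all genes) and 5 in PBS (6.77% of all genes), the others being Pkm, Aldoa and Eno1. Since the enzymes were chosen on this contrast, these counts are not read further. For KO minus PBS the log2 differences of the 10 enzymes ran from −0.41 (Hk2) to 0.05 (Pgam1), and from −0.50 (Hk2) to −0.02 (Pgam1) without KO ZT15 replicate 2.

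**Figure D2:**
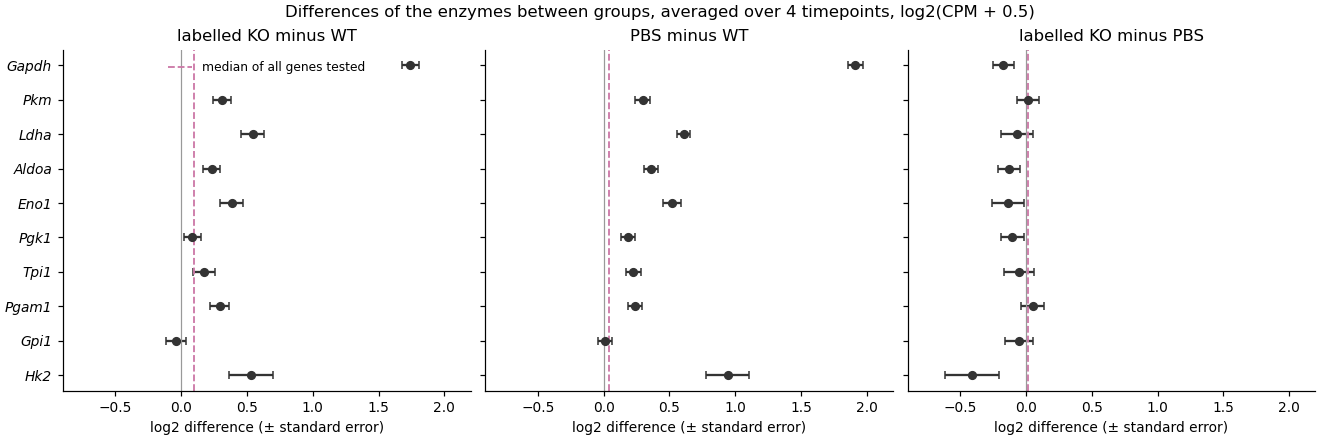
Each point is the log2 difference of 1 enzyme averaged over the 4 timepoints on the log2(CPM + 0.5) scale, with its standard error as a bar, for KO minus WT, PBS minus WT and KO minus PBS. The dashed line is the median of all genes tested. Gapdh lies at 1.74 and 1.91 in the comparisons with WT, while the other 9 lie between −0.04 and 0.94.

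The ratio of an enzyme to the other 9 in the same library does not depend on how libraries are scaled, apart from the pseudocount of 0.5 CPM. The log2 level of Gapdh minus the mean log2 level of the other 9 ranged from −0.03 to 0.33 in WT (median 0.20), from 1.34 to 1.96 in KO (median 1.65) and from 1.55 to 1.85 in PBS (median 1.75). In linear terms the median ratio was 1.15 in WT, 3.13 in KO and 3.37 in PBS. KO ZT15 replicate 2, in which the other enzymes were high too, had the lowest value of the KO libraries here, 1.34, and the other KO libraries had 1.53 to 1.96. Gapdh made up 6.92 to 8.66% of the summed CPM of the 10 enzymes in WT, 16.1 to 22.2% in KO and at least 18.4% in PBS (median 7.70% in WT and 18.8% in KO), while the sum of the other 9 had medians of 2140, 2427 and 2727 CPM.

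Relative to the other 9, no enzyme except Gapdh was higher in all libraries of a group. Gpi1 was lower by this measure, with −0.30 to 0.00 in KO and −0.53 to 0.03 in PBS against 0.16 to 0.76 in WT, without overlap. Pgk1 was −0.89 to −0.19 in KO and −0.74 to −0.29 in PBS against −0.27 to 0.04 in WT, and only the PBS libraries did not overlap those of WT. Gapdh itself, chosen by its difference between groups, enters the mean of the others and lowers these values. The lack of overlap is therefore a trait of this measure, and is not read as a fall of Gpi1 or Pgk1. In CPM the KO and PBS libraries of both enzymes overlapped those of WT, and the measure was not computed without Gapdh. The relative level of Ldha differed by 0.13 (KO) and 0.09 (PBS) on the log2 scale from WT, and that of Eno1 by −0.05 and −0.01. Those of Tpi1 (−0.28 and −0.34), Aldoa (−0.22 and −0.19), Pgam1 (−0.15 and −0.32) and Pkm (−0.13 and −0.26) were lower on average with overlap, and that of Hk2 was higher (0.12 and 0.46). Gapdh lowers all of these values too, so the lower ones do not show a fall relative to the rest of the pathway.

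**Figure D3:**
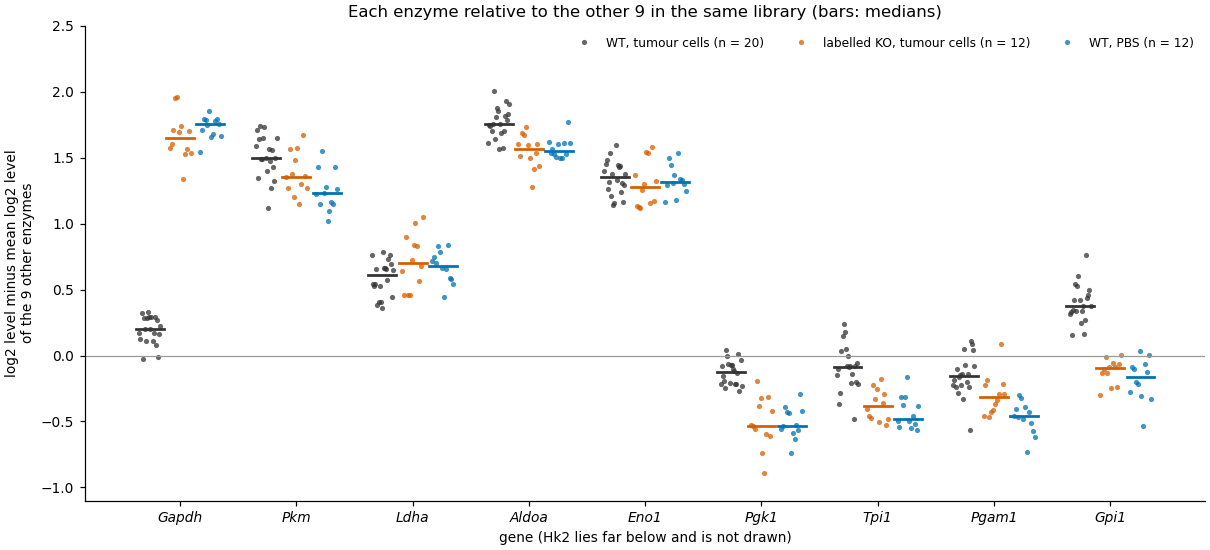
For each enzyme, points give the log2 level in a library minus the mean log2 level of the 9 other enzymes in that library, for 20 WT, 12 KO and 12 PBS libraries, with bars for medians. Hk2 lies far below (median −5.36 in WT) and is not drawn. Gapdh moves from a median of 0.20 in WT to 1.65 and 1.75, Gpi1 and Pgk1 move downward most, and Tpi1, Aldoa, Pgam1 and Pkm lie lower by less. Gapdh is part of the mean for every other enzyme, so its higher level in KO and PBS lowers their points.

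Levels between genes were compared per kilobase of exons. In WT, Gapdh had 44.7 CPM per kilobase, below Aldoa (132), Pkm (83.9), Pgam1 (75.3), Ldha (71.6), Eno1 (71.0), Pgk1 (67.2) and Tpi1 (56.1), and above Gpi1 (32.4) and Hk2 (0.895). In KO it had 151 CPM per kilobase, next to Aldoa (157), and in PBS 168, next to Aldoa (170). By this length Gapdh was number 8 of the 10 in WT and number 2 in each of the other groups. The exon length is the union over all transcripts annotated under the name of the gene, 4133 bases for Gapdh, and the order changes with the length used. The values of Aldoa per kilobase of exons are uncertain, since the interval annotated under its name did not hold its RefSeq start sites. Per kilobase of the longest coding transcript, 1420 bases for Gapdh, it had 130 CPM in WT (number 5, next to Ldha with 131), 440 in KO and 489 in PBS (number 1 in both), where Aldoa had 317, 376 and 407. That length was chosen after seeing the data.

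Reads of 50 bases cannot always be placed on 1 gene. Of the 50-base windows of the Gapdh transcript, 82.5% occur also in other annotated genes (222 genes, of which 213 are pseudogenes and 1 is listed in the table). The share was 72.2% for Eno1, 68.0% for Pgk1, 41.5% for Pgam1, 34.4% for Pkm, 25.3% for Gpi1, 16.6% for Ldha, 13.5% for Aldoa, 7.51% for Tpi1 and 0% for Hk2. The values of Gapdh and Aldoa were fractions of a read in 44 of 44 libraries and those of Eno1 in 43, against 9 for Ldha and 0 for the other 6 enzymes. Of 317 genes tested whose values were fractions in all libraries, 1 (0.315%), Gapdh, was at least 2-fold higher in KO than in WT and 13 (4.10%) were in PBS, while of 8668 genes with whole reads throughout 242 (2.79%) and 443 (5.11%) were. Shared windows and fractions did not always go together. Pgk1 shared 68.0% of its windows and had fractions in 0 libraries, while Aldoa shared 13.5% and had them in 44 of 44. The levels of Gapdh, Eno1 and Pgk1 are uncertain because of shared windows, and that of Aldoa because of its fractions. The part of read placement in the difference was not tested.

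Other measures differed along with Gapdh between WT and the other groups. Depth was lower in WT, with at most 28962671 reads on genes against at least 29406729 in KO and 28003328 in PBS, and its part was not tested. The summed NK cell markers were 3.28 to 15.1 CPM in WT, 9.98 to 57.0 CPM in KO and 31.6 to 178 CPM in PBS, and 5 of 6 in KO and 6 of 6 in PBS were called higher (limma, adjusted p under 0.05), where 23.5% of all genes in KO and 24.6% in PBS were. The 9 T cell markers summed to 259 to 603, 387 to 909 and 505 to 1102 CPM, with 3 and 9 of 9 called higher. Sums for granulocytes and macrophages were 17.6 to 54.1, 21.9 to 194 and 34.8 to 57.6 CPM, with 3 of 6 called higher in each comparison and Elane at 0 in all KO libraries. B cell sums were 28.7 to 51.1, 29.2 to 119 and 43.4 to 76.4 CPM, with 1 and 3 of 4 called higher. Erythroid sums reached 35.4, 14.0 and 1.51 CPM, with 0 of 2 called in KO and 1 of 2 called lower in PBS. Of the 12 DC markers, 1 was called higher and 0 lower in KO (1 and 1 without KO ZT15 replicate 2), and 4 higher and 2 lower in PBS. Melanoma markers summed to 1.10 to 3.32, 1.45 to 22.1 and 2.78 to 5.59 CPM, with 0 and 1 of 2 called higher and Tyrp1, Dct and Mlana at 0 in all PBS libraries. The part of these cells in the values of Gapdh was not tested, and in sorted bulk samples a change in the cells present and a change of RNA per cell cannot be told apart. The sources used here do not say which mice belong to which of the independent experiments, so a batch that follows the groups cannot be told apart from them.

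Reference genes other than Gapdh were compared as a list, with limma and an adjusted p under 0.05 over all genes. In KO, 4 of 10 were higher than in WT and 3 lower (median log2 difference 0.08), and in PBS 4 and 3 (median 0.10). Actb, the gene of cytoplasmic actin, fell by 1.27 on the log2 scale in KO (SE 0.07, adjusted p 2.44e-14), from a mean of 22628 to 9335 CPM, and fell by 0.80 in PBS (adjusted p 2.39e-10), to 12853 CPM. Rplp0 and Rpl32, genes of ribosomal proteins and the study's other references, fell by 0.63 (adjusted p 2.28e-06) and 0.49 (adjusted p 0.00128) in KO, and by 0.29 (adjusted p 0.000549) and 0.26 (adjusted p 0.0184) in PBS. Tfrc, the transferrin receptor, rose by 1.38 (adjusted p 0.000377) and 1.46 (adjusted p 6.2e-05). Hprt and Ywhaz rose in both comparisons, by 0.20 and 0.18 in KO (adjusted p 0.0192 and 0.00701) and by 0.48 and 0.16 in PBS (adjusted p 7.37e-07 and 0.00729).

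Tbp rose by 0.45 in KO (adjusted p 0.0018) and differed by 0.12 in PBS (adjusted p 0.412), and B2m differed by 0.06 in KO (adjusted p 0.466) and rose by 0.25 in PBS (adjusted p 0.00166), all by limma. Gusb (0.09 and 0.09, adjusted p 0.277 and 0.32) and Ppia (−0.16 and 0.02, adjusted p 0.124 and 0.88) passed the test in neither. Of the study's references, Gapdh thus lay above WT in every KO and PBS library, while Rplp0 and Rpl32 were lower than in WT on average. Of these reference genes, 1 was called higher and 3 lower in KO than in PBS: Tbp was higher by 0.33 (adjusted p 0.03), and Actb fell by 0.47 (adjusted p 0.000227), Rplp0 by 0.34 (adjusted p 0.0304) and Hprt by 0.28 (adjusted p 0.0481).

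The rest of the pathway was tested in 6 lists, 75 genes in all: isozymes of the glycolytic steps, transporters, regulators, the pentose phosphate pathway, pyruvate dehydrogenase with the citrate cycle, and hypoxia genes. Of these, 32 were higher and 4 lower in KO than in WT (median log2 difference 0.21), and 31 higher and 7 lower in PBS (median 0.15). Over all genes tested, 23.5% were higher and 10.2% lower in KO, and 24.6% and 13.3% in PBS. Under median-of-ratios scaling the KO counts among the 75 were 16 higher and 6 lower. The shares above are by CPM, and the share of all genes under that scaling is not given here. Without KO ZT15 replicate 2, by CPM, 29 were higher and 3 lower, where 2720 and 1185 of all 11963 genes were.

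The list of other isozymes holds further genes of glycolysis, among them enolases, a mutase and the phosphofructokinases. Some were abundant in these cells: Eno3, an enolase, had 432 CPM per kilobase of exons in WT, against 71.0 for Eno1 (188 per kilobase of its longest coding transcript). In KO 5 of 14 were higher and 0 lower. Ldhb, the lactate dehydrogenase subunit of heart, rose by 0.53 (SE 0.09, adjusted p 4.13e-05, limma), from 16.3 to 23.6 CPM, and Adpgk, an ADP-dependent glucokinase, by 0.41 (adjusted p 0.00199). The phosphofructokinase subunits Pfkl and Pfkp rose by 0.29 (adjusted p 0.0128) and 0.27 (adjusted p 0.013), and hexokinase 3, Hk3, by 0.79 (SE 0.26, adjusted p 0.0214). In PBS 5 were higher and 2 lower. Pgam2, the mutase of muscle, rose by 1.28 (SE 0.20, adjusted p 9.87e-06), from 1.55 to 4.40 CPM, Ldhb by 0.48 (adjusted p 0.000238), Adpgk by 0.48 (adjusted p 0.00174), Pfkp by 0.40 (adjusted p 0.000595) and Hk3 by 0.72 (adjusted p 0.0134). The enolases Eno2 and Eno3 fell by 0.42 (adjusted p 0.00166) and 0.20 (adjusted p 0.00216).

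Transporters of glucose and lactate showed 3 of 8 genes higher and 1 lower in KO. Slc16a3, which exports lactate, rose by 0.62 (SE 0.15, adjusted p 0.00218, limma), Slc2a1, the glucose transporter GLUT1, by 0.58 (SE 0.17, adjusted p 0.0109) and Bsg, the chaperone of lactate transporters, by 0.18 (adjusted p 0.00297). Slc2a6 fell by 0.17 (adjusted p 0.0317, and 0.0578 without KO ZT15 replicate 2). In PBS 4 were higher and 1 lower. Slc16a1 and Slc16a7, also carriers of lactate and pyruvate, rose by 0.81 (adjusted p 0.000116) and 0.80 (adjusted p 0.0417), Slc2a1 by 0.56 (adjusted p 0.00599) and Bsg by 0.17 (adjusted p 0.00359), and Slc2a6 fell by 0.30 (adjusted p 0.000685).

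Regulators of the flux were mostly not called, with 2 of 12 higher and 0 lower in KO and 3 higher and 1 lower in PBS. Myc, a transcription factor that drives many glycolytic genes, rose by 0.90 in KO (SE 0.12, adjusted p 1.73e-06, limma), from 12.7 to 24.3 CPM, and by 1.36 in PBS (SE 0.11, adjusted p 1.23e-10), to 33.2 CPM. Pdp1, the phosphatase that activates pyruvate dehydrogenase, rose by 0.43 (adjusted p 0.0243) and 0.49 (adjusted p 0.00337). In PBS, Tigar, which lowers fructose 2,6-bisphosphate, rose by 0.41 (adjusted p 0.00848) and Pdk3, a kinase that inhibits pyruvate dehydrogenase, fell by 0.25 (adjusted p 0.00129).

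In the pentose phosphate pathway, which branches from glucose 6-phosphate, 3 of 8 genes were higher and 1 lower in KO. Pgls fell by 0.40 (SE 0.07, adjusted p 9.5e-05, limma), while Pgd rose by 0.20 (adjusted p 0.0159), H6pd by 0.63 (adjusted p 0.0278) and G6pdx by 0.26 (adjusted p 0.0442, and 0.0636 without KO ZT15 replicate 2). In PBS 4 were higher and 0 lower, with 0.49 for G6pdx (adjusted p 7.56e-05), 0.30 for Taldo1 (adjusted p 0.000148), 0.78 for H6pd (adjusted p 0.0013) and 0.36 for Rpia (adjusted p 0.0146). Pyruvate dehydrogenase and the citrate cycle, which burn pyruvate in mitochondria, had 12 of 18 genes higher and 1 lower in KO and 9 higher and 0 lower in PBS. Idh3a rose by 0.65 (SE 0.08, adjusted p 1.59e-06), Pdhb by 0.30 (adjusted p 4.16e-05) and Dlat by 0.43 (adjusted p 4.88e-05) in KO, and Idh3b fell by 0.20 (adjusted p 0.00489). In PBS, Idh3a rose by 0.80 (adjusted p 1.33e-08), Sdhb by 0.40 (adjusted p 2.33e-07) and Suclg1 by 0.35 (adjusted p 3.06e-06).

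Hypoxia genes outside glycolysis share HIF-1 as a regulator with many glycolytic enzymes. In KO 7 of 15 were higher and 1 lower, led by Bnip3 (0.75, SE 0.13, adjusted p 8.77e-05, limma), Vegfa (1.39, SE 0.29, adjusted p 0.000624, from 2.00 to 5.55 CPM) and Higd1a (0.35, adjusted p 0.000748). In PBS 6 were higher and 3 lower, led by Egln3 (1.87, SE 0.20, adjusted p 3.14e-08, from 1.25 to 5.78 CPM), Vegfa (1.68, adjusted p 2.12e-05) and Bnip3 (0.51, adjusted p 0.000295). Egln1, which marks HIF for degradation, fell by 0.86 in KO (adjusted p 0.00121) and by 0.55 in PBS (adjusted p 0.00482). Ddit4 and Ndrg1 also fell in PBS, by 0.47 (adjusted p 0.000484) and 0.20 (adjusted p 0.0433).

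Between KO and PBS, 3 of the 75 genes were higher and 5 lower by limma, where 5.43% of all genes were called higher and 4.3% lower. Eno2 was higher by 0.37 (adjusted p 0.00909), Pdk3 by 0.37 (adjusted p 0.0137) and Mxi1 by 0.46 (adjusted p 0.00759). Pgam2 fell by 1.61 (adjusted p 0.0037), Myc by 0.46 (adjusted p 0.0186), Pgls by 0.28 (adjusted p 0.0293), Rpia by 0.41 (adjusted p 0.0499) and Sdhb by 0.30 (adjusted p 0.00801). On the log2(CPM + 0.5) scale, which understates changes of low genes, the largest differences from WT among the 75 were 1.39 (Vegfa) in KO and 1.87 (Egln3) in PBS, beside 1.74 and 1.91 for Gapdh. As a ratio of mean CPM, Egln3 in PBS (from 1.25 to 5.78 CPM) and P4ha2, a prolyl hydroxylase of collagen (from 0.120 CPM to 0.936 in KO and 0.739 in PBS), exceeded Gapdh. P4ha2 is named because of this ratio, after its values were seen. Its ratios stand over a WT mean of only 0.120 CPM, and that of KO includes KO ZT15 replicate 2. Without that library its log2 difference in KO was 0.58 (SE 0.22).

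**Figure D4:**
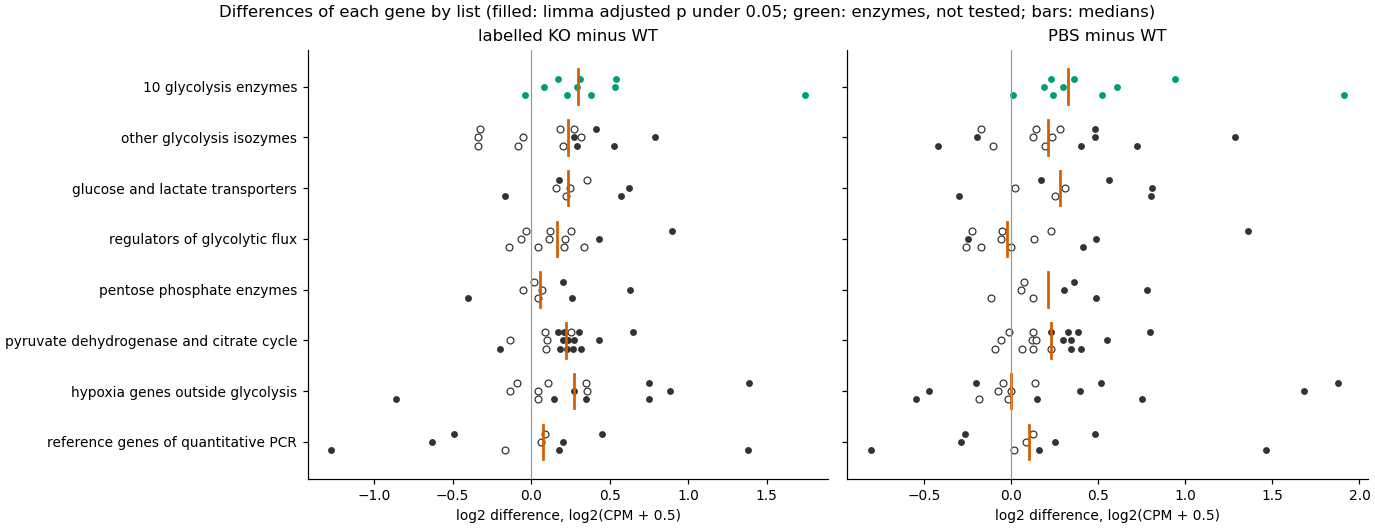
Each point is the log2 difference of 1 gene from WT, in KO and in PBS, by list, with the list median as a bar. Filled points have an adjusted p under 0.05 by limma, open points do not, and the 10 enzymes are coloured without a test. Gapdh is the highest point of its row at 1.74 and 1.91, and the medians of the lists lie between −0.03 and 0.33.

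Time of day was compared within each group, where Gapdh was not chosen by its values. In WT all 10 enzymes had their highest mean at ZT15, which was so for 19.5% of all genes. This remained 10 of 10 when any WT library was left out and under either scaling. For Gapdh the mean was 219 ± 15.7 CPM at ZT15, against 179 ± 25.0 CPM at ZT3, 173 ± 14.7 CPM at ZT9 and 168 ± 8.55 CPM at ZT21 (SD, n = 5). Its ZT15 libraries (206 to 245 CPM) overlapped those of ZT3 only through 1 library of 213 CPM, and lay above all of ZT9 and ZT21.

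Ldha and Eno1 differed between the timepoints. Ldha was, in CPM, 236, 238, 242, 211 and 238 at ZT3, 178, 204, 199, 178 and 207 at ZT9, 315, 261, 291, 294 and 292 at ZT15, and 247, 233, 240, 208 and 229 at ZT21. Every ZT15 library was above, and every ZT9 library below, all libraries of the other timepoints. Eno1 was, in CPM, 352, 418, 441, 331 and 361 at ZT3, 365, 337, 339, 281 and 340 at ZT9, 522, 396, 473, 474 and 500 at ZT15, and 340, 327, 323, 355 and 361 at ZT21. Here 1 library of ZT15 lay within the range of ZT3.

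By limma's F test of the 4 timepoint means in WT, the adjusted p over all genes was 0.00554 for Ldha and 0.0176 for Eno1, 2 of the 10 enzymes, where 5.28% of all genes passed. For the other 8 it ran from 0.0568 (Tpi1), 0.0592 (Pgam1) and 0.0656 (Gapdh) to 0.441 (Pkm). Without WT ZT15 replicate 1 or replicate 5 only Ldha passed (Eno1 0.061 and 0.0529), and without ZT3 replicate 3 there were 5. A cosinor of 24 h, the test of rhythm used by the study, gave an unadjusted p under 0.05 for 5 enzymes: Tpi1 (0.00557), Ldha (0.0152), Pgam1 (0.0215), Pgk1 (0.0434) and Gpi1 (0.0488) in limma, where 9.2% of all genes had one. After adjustment 0 of the 10 passed, where 0.0251% of all genes did. The number at an unadjusted p under 0.05 was 2 without WT ZT15 replicate 1 and 7 without WT ZT3 replicate 3. The acrophases lay between 12.6 and 17.8 h, and the median amplitude was 0.15 on the log2 scale, beside 0.14 over all genes.

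The other 7 enzymes did not pass the F test, which says nothing of the size of their differences: from the lowest to the highest mean, Hk2 ran over a wider ratio than Ldha, with SDs of 1.65 to 1.78 CPM. The means at ZT3, ZT9, ZT15 and ZT21 were 144, 159, 179 and 135 CPM for Tpi1, 140, 131, 178 and 147 CPM for Pgam1, and 143, 144, 175 and 142 CPM for Pgk1. They were 466, 469, 538 and 489 CPM for Aldoa, 436, 398, 452 and 391 CPM for Pkm, 194, 201, 227 and 212 CPM for Gpi1, and 5.79, 4.06, 6.85 and 4.68 CPM for Hk2. Of the related lists in WT, 7 of 8 pentose phosphate genes also had their highest mean at ZT15, against 4 of 14 isozymes, 3 of 8 transporters, 1 of 12 regulators, 7 of 18 genes of pyruvate dehydrogenase and the citrate cycle, 3 of 15 hypoxia genes and 4 of 10 reference genes.

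Some marker sums also differed between the timepoints in WT. DC markers summed to 31081 to 35159 CPM at ZT15, 28504 to 37716 CPM at ZT3, 26034 to 30257 CPM at ZT9 and 26014 to 30106 CPM at ZT21. Granulocyte and macrophage markers had medians of 40.6, 31.8, 24.9 and 22.2 CPM in that order, NK cell markers of 12.2, 8.23, 6.25 and 6.38 CPM, T cell markers of 484, 412, 313 and 450 CPM, and B cell markers of 44.7, 40.3, 40.6 and 46.9 CPM. T cell markers at ZT15 (447 to 529 CPM) overlapped those at ZT21 (422 to 603 CPM). Their part in the enzymes' values was not tested.

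In KO all 10 enzymes again had their highest mean at ZT15, where 33.1% of all genes did. Without KO ZT15 replicate 2, 9 had it there and Pgk1 was highest at ZT9, and the share of all genes without that library is not given here. The spread was wide: Ldha was, in CPM, 329, 263 and 335 at ZT3, 256, 257 and 309 at ZT9, 404, 808 and 383 at ZT15, and 261, 293 and 446 at ZT21. In the cosinor, 0 of the 10 enzymes had an unadjusted p under 0.05 with or without that library, where 10.5% of all genes had one. In PBS 7 enzymes were highest at ZT15, where 29.1% of all genes were, but only 2 without PBS ZT15 replicate 2, 3 without PBS ZT3 replicate 2, and 10 without PBS ZT15 replicate 1. The shares of all genes without these PBS libraries are not given here. The cosinor gave 0 of 10 at an unadjusted p under 0.05 in PBS, where 7.38% of all genes had one. The median amplitude over the 10 enzymes was 0.27 in KO (all genes 0.22), 0.12 in KO without KO ZT15 replicate 2 (all genes 0.23), and 0.07 in PBS (all genes 0.18).

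Whether the time course differed from that of WT was tested by interaction. For KO, 0 of the 10 enzymes had an unadjusted p under 0.05 in limma, where 18.3% of all genes had one. For PBS 1 did, Ldha (p 0.00952, adjusted p 0.251), where 11.9% of all genes had one. The log2 difference of Ldha between PBS and WT was 0.67, 0.89, 0.39 and 0.50 at ZT3, ZT9, ZT15 and ZT21, and PBS values ran from 311 to 449 CPM at ZT15 and from 337 to 369 CPM at ZT9. For Gapdh the unadjusted interaction p was 0.736 for KO and 0.41 for PBS.

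**Figure D5:**
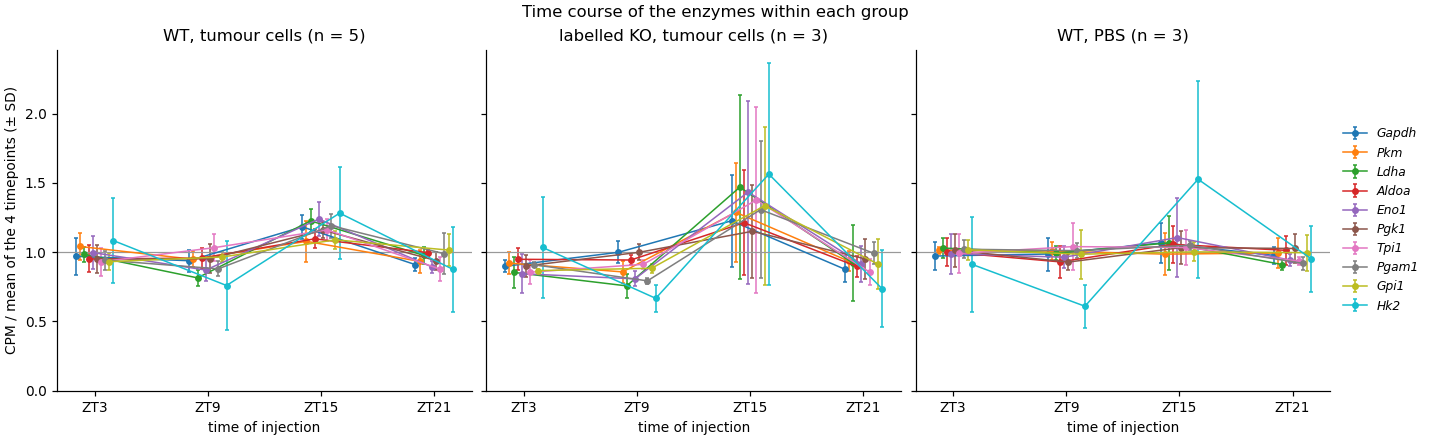
For each group, lines give the mean CPM of each enzyme at a timepoint divided by its mean over the 4 timepoints, with bars of 1 SD over mice (n = 5 in WT, n = 3 in KO and PBS). All lines of WT are highest at ZT15, and those of KO are highest there with wide bars. In PBS 7 of the 10 lines are highest at ZT15, and the line of Hk2 moves most.

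Mice of the same group and timepoint were used to see whether Gapdh varies with the other enzymes, with both on log2(CPM + 0.5) as deviations from the timepoint mean. There were 27 relations (9 in each group), with p-values by permutation of mice within timepoints, two-sided, adjusted over the 27. In KO, Aldoa followed Gapdh (r = 0.96, rho = 0.95, exact p 0.000772 for each, adjusted 0.0104), and r was 0.84 without the 2 mice farthest from the median, KO ZT15 replicates 2 and 3. The exact test cannot give a smaller p. The other 8 relations in KO had r from 0.68 to 0.87, with adjusted p of at least 0.115. Without those mice r was −0.18 (Pkm) to 0.54 (Ldha) in 6 of them, which rest on these mice, while it was 0.67 for Gpi1 and 0.62 for Hk2. In PBS, Eno1 followed Gapdh (r = 0.92, rho = 0.94, exact p 0.000772 for each, adjusted 0.0104), and r was 0.91 without the 2 mice farthest out. The other PBS relations had r from 0.24 (Hk2) to 0.85 (Tpi1), with adjusted p of at least 0.05.

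In WT r ran from 0.20 (Pgam1) to 0.72 (Aldoa, rho 0.64). By CPM the median r was 0.36 in WT, 0.81 in KO (0.45 without the 2 mice) and 0.75 in PBS. The groups were not tested against each other. The permutation p of Aldoa was 0.00613 for r (adjusted 0.05) and 0.015 for rho (adjusted 0.0676), and r was 0.67 without the 2 mice farthest out, so 0 of 9 had an adjusted p under 0.05. Under median-of-ratios scaling the WT relations had r from 0.35 to 0.90, and 8 of 9 passed by r and 6 by rho. In PBS 4 and 3 of 9 passed, and in KO 1 and 1. The median r was then 0.71 in WT, 0.81 in KO and 0.73 in PBS, so the distance between the groups depends on the scaling. Over all 44 libraries, as deviations from the 12 condition means, the genes most like Gapdh were Aldoa (r 0.85), Fxyd5 (0.76), Eno1 (0.76), Prelid1 (0.74) and Clta (0.74). Without KO ZT15 replicate 2 they were Ucp2 (0.80), Tubb5 (0.79), Aldoa (0.78), Clta (0.73) and Clic1 (0.71). These correlations share each library's scaling, and are given as a description.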

How the data were processed

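RNA-seq of CD45+CD11c+MHCIIhigh lymph node cells from 44 mice was used (20 WT, 12 KO, 12 PBS, grouped by the sample labels). The authors made cDNA with SMART-Seq v4 and libraries with Nextera XT, sequenced single reads of 50 bases, aligned them with STAR (version 2.7.0) to mm10 and counted genes with HTSeq (version 0.9.1). They deposited CPM, counts scaled by library size, for 14699 genes. Each column adds up to 1000000, so the reads on genes could be derived from the steps of the values; 88.8 to 91.4% of the values of a library were whole reads within 0.01 read. Because the rest were fractions, no count test was run, and no counting interval is given. No pair of libraries held identical values.

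The 11963 genes that reach 1 CPM in 5 or more libraries were tested on log2(CPM + 0.5), which understates changes of low genes, with limma (version 3.58.1, R 4.3.3), moderated variances and p-values adjusted by Benjamini-Hochberg across these genes. Groups were compared with the 4 timepoints weighed equally, on the libraries of the groups compared. Time of day was tested within a group by a 24 h cosinor, as in the study, and by an F test of the timepoint means, and differences in time course by interaction. Other work used Python 3.11.15, numpy 2.4.6, pandas 2.3.3, scipy 1.17.1 and matplotlib 3.10.9. The fits were tested on simulated data. Exon lengths and shared 50-base windows are from GENCODE M21 (GRCm38), start sites from RefSeq.

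The enzymes, the other gene lists and the marker lists were chosen with earlier results of these data known. Genes are named by a rule: the 10 enzymes, the reference genes, of each other list up to 3 genes with the smallest p past an adjusted p of 0.05 in each comparison (all of them where 5 or fewer passed), and the 5 genes most correlated with Gapdh. Of the listed genes, Pgk2, Ero1l, Trac, Ighm, Ly6g and Sox10 were not used here, and some others are not reported here. Alternatives were other pseudocounts (1 and 0.1), scaling by the median of ratios or without the enzymes, no filter or a mean of at least 10 CPM, array weights, an intensity trend, a block for the replicate number, 1 fit of all libraries, and each library left out. Leaving out KO ZT15 replicate 2 in the list counts, and all alternatives for the F test of timepoint means and for the timepoint of the highest mean, were added after seeing the data.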

Additional observations from a re-analysis of the deposited data

Results flagged for a closer look

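Among the enzymes, 40 groups of 4 or more libraries were checked for a library far from the rest, and 2 held one by Dixon's criterion, where chance gives about 1 in 20. Ldha in WT ZT3 replicate 4 was 211 CPM, with 236 to 242 CPM in the other 4 libraries of that timepoint, a gap of 0.80 of the range. Gpi1 in WT ZT9 replicate 5 was 215 CPM, with 195 to 201 CPM in the other 4, a gap of 0.74 of the range. Groups of 3 libraries, in KO and PBS, were not checked in this way, so KO ZT15 replicate 2 is not among them. Of 20 interactions with time (10 enzymes, KO and PBS each against WT), 1 had an unadjusted limma p under 0.05, that of Ldha in PBS (p 0.00952, adjusted p 0.251 over all genes), which fails the correction. The causes of these values were not tested.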

How the results depend on the processing

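No called value changed sign under any alternative. Left out in turn, the libraries moved the log2 difference of Gapdh between 1.69 and 1.78 (KO minus WT), 1.89 and 1.93 (PBS minus WT) and -0.22 and -0.13 (KO minus PBS), and the median of the other 9 enzymes between 0.22 and 0.33, 0.27 and 0.32, and -0.15 and -0.02. Counts among the 75 other pathway genes ranged from 26 to 33 higher and 3 to 5 lower (KO minus WT), 29 to 33 and 6 to 8 (PBS minus WT), and 3 to 4 and 3 to 7 (KO minus PBS). Enzymes with a cosinor p under 0.05 in WT ranged from 2 to 7, those with an adjusted p over the timepoint means from 1 to 5, those with an interaction p under 0.05 from 0 to 1 for KO (1 without KO ZT15 replicate 3) and 1 to 2 for PBS, and those highest at ZT15 from 10 to 10 in WT, 9 to 10 in KO and 2 to 10 in PBS.

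Of the other settings, median-of-ratios scaling gave 16 other pathway genes higher in KO (32 by CPM), 3 enzymes with a cosinor p under 0.05 in WT (5 by CPM), and 8 enzymes correlated with Gapdh in WT by r (0) and 4 in PBS (1), or 6 (0) and 3 (1) by rho. A mean of at least 10 CPM, which removes Hk2, gave 20 other pathway genes higher in PBS (31), since fewer genes were tested, and 5 enzymes with an adjusted p over the timepoint means in WT (2). An intensity trend gave 3 enzymes with a cosinor p under 0.05 in KO (0), 2 with an interaction p under 0.05 for PBS (1) and 5 over the timepoint means in WT. Array weights gave 6 higher and 8 lower pathway genes for KO minus PBS (3 and 5), 2 interactions for PBS and 6 enzymes over the timepoint means. All 44 libraries in 1 fit gave 0 interactions for PBS. The causes of these shifts were not tested.

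The replicate number as a block gave 3 enzymes with a cosinor p under 0.05 in WT (5 without the block), a difference of 1.76 for Gapdh in KO and 1.93 in PBS, and 24 higher and 3 lower pathway genes in KO. It moved no other count by over 1.5 times. The numbers do not pair the mice: over same-numbered libraries of a timepoint the correlation of deviations ran from -0.10 to 0.17, with medians of 0.03 (WT and KO), 0.00 (WT and PBS) and 0.02 (KO and PBS).

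Depth limits Hk2 most, with 52 to 1185 reads per library, against 3113 to 42322 for Gapdh.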
